A study of Caenorhabditis elegans with 29 samples.

Results

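Gonads of a pgl-1 mutant strain were compared with wild-type gonads by RNA sequencing, with 3 libraries in each group. The tissue was dissected from Caenorhabditis elegans hermaphrodites at Day 1 of adulthood, and all strains used here are labelled 24 °C. The wild type is strain SS1174 with no allele listed. The mutant is strain SS0002, which carries pgl-1(ct131) and him-3(e1147), both on chromosome IV, so effects of the 2 alleles cannot be told apart. These 6 libraries are part of 29 in the series; 2 libraries labelled as glh-1(gk100) gonads (strain SS0804) of the same age, called the glh-1 mutant after that label, are used for comparison. Day 1 RNAi gonads labelled P-granule(-) and UNC-119::GFP(-), with their own Day 1 controls, are also set beside these. The labels describe choosing sterile worms for RNAi samples and fertile worms for adult controls, and do not state which was done for the mutants. Of 45627 genes in the authors' deposited table, 13469 have an adjusted p for this comparison, and all of these were examined.

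PGL-1 and PGL-3 are scaffold proteins of P granules, condensates of RNA and protein that sit at the nuclear pores of worm germ cells. The Vasa-related RNA helicases GLH-1 and GLH-4 are further constant components. P granules hold germline mRNAs and small RNA factors, and worms that lack their components become sterile at raised temperature. HIM-3 is a protein of the meiotic chromosome axis that acts in homologue pairing and crossing over. In wild-type adult germ lines the X chromosome is largely silent.

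Levels are given as normalized reads, which are reads per gene divided by a factor for each library. The authors deposited averages per group, from which the reads behind each library were recovered as whole numbers. Letters a, b and c run from the deepest library of a group to the shallowest, because the recovered libraries carry no replicate number. Reads on genes ran from 1158248 to 4303736 per wild-type library and from 1697197 to 4416849 per mutant library. At an even depth of 1158248 reads, 9716 to 10057 genes were expected in each wild-type library and 13120.1 to 14281 in each mutant library. Wild-type library b stood apart in noncoding RNA, which took 7.16% of its reads, against 1.13% and 2.18% in the other wild-type libraries and 1.15% to 3.86% in the mutant. Whether replicates came from separate cultures is not stated, so p-values measure the spread between these samples, which may be technical.

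More genes were higher than lower in the mutant, and the higher genes changed by more. An adjusted p of 0.05 was passed by 4187 of 13469 genes (31.1%) in the authors' deposited table, with 2997 (22.3%) higher and 1190 (8.84%) lower. Genes that rose were mostly scarce in wild type: 2083 of the 2997 had a wild-type mean under 10 normalized reads. The share of all tested genes under that mean was not counted. No read in any wild-type library was found for 583 of the higher genes, and for 1324 of all tested genes. By mean expression over both groups, 5694 of all tested genes were under 10. Of these, 1299 rose (22.8%), near the 22.3% of all tested genes. The largest share rose at a mean expression from 10 to below 100, with 1322 of 3361 genes (39.3%). The median log2 fold change of the higher genes was 2.41 in the authors' deposited table, or 2.295 with genes at 0 set to a lower bound (3 reads over the wild-type group). Genes that fell were mostly abundant: 1024 of the 1190 had a wild-type mean of at least 100. That share was likewise not counted over all tested genes. The median log2 fold change of the lower genes was −0.76 in the authors' deposited table. Over all tested genes the median was 0.45. Among the 5694 genes under a mean expression of 10, 17 fell (0.299%), against 747 of 3921 genes from 100 to below 1000 (19.1%). How far low counts kept scarce genes from being called lower was not tested. A change of at least 2-fold was found for 2894 of the higher and 273 of the lower genes in the authors' deposited table.

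**Figure D1:**
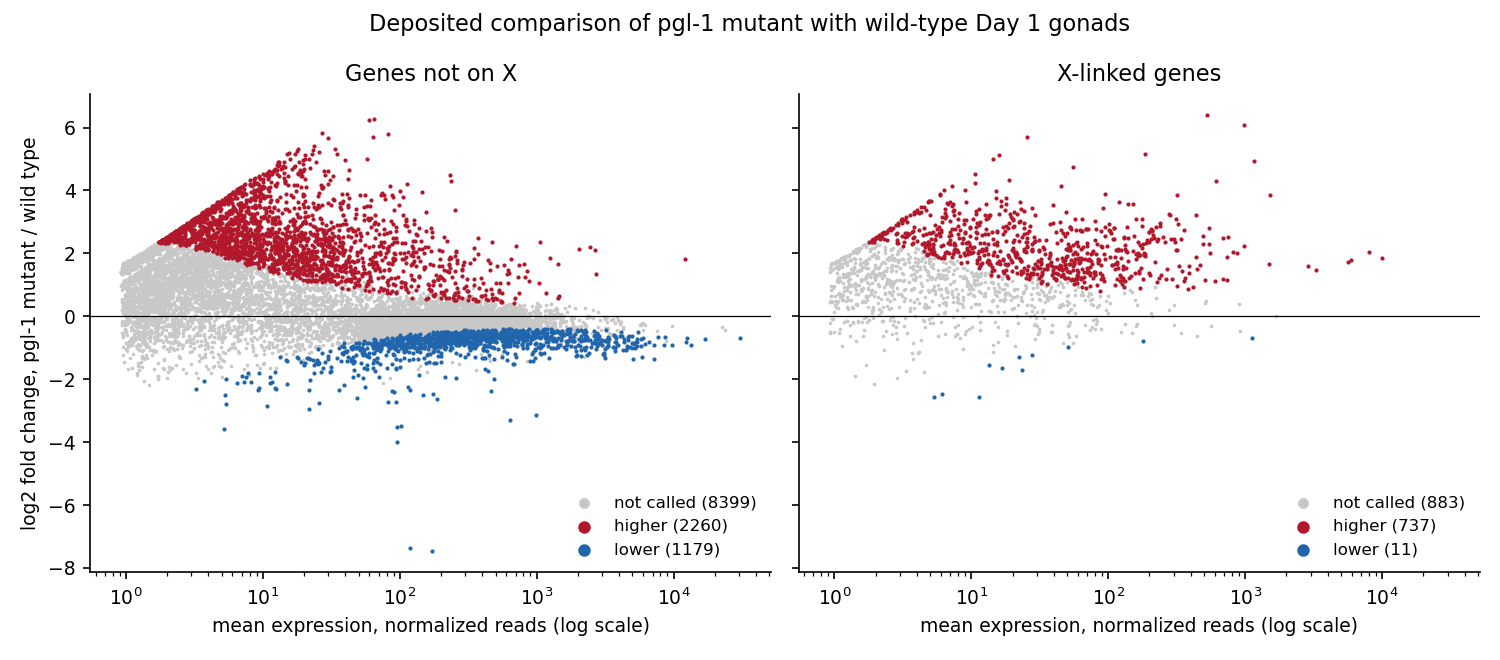
Deposited log2 fold change of the pgl-1 mutant over wild type against deposited mean expression in normalized reads (log axis), with 1 point per tested gene. The left panel holds genes not on the X chromosome, including those with no annotated chromosome, and the right panel holds X-linked genes, of which 737 were higher and 11 lower.

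Among the most abundant genes more fell than rose: of 493 with a mean expression of 1000 or more, 21 rose and 227 fell in the authors' deposited table. No such reading is made of scarce genes, since 1324 tested genes had no wild-type read and could only be higher in the mutant. All 3 mutant libraries lay above all 3 wild-type libraries for 2821 of the higher genes, a pattern shown by 34.1% of all tested genes. For 1107 of the lower genes all 3 lay below, against 14% of all tested genes. A limma voom fit to the reads of each library called 3640 genes higher (24%) and 1295 lower (8.53%), among them 2909 and 1117 of those called in the authors' deposited table. Scaling by total reads moved the median of all genes by 0.26 on the log2 scale and gave 4527 higher and 503 lower genes, so that 90% of calls were higher against 73.8% with the authors' factors. Without wild-type library a the voom counts were 1718 and 737, without wild-type library b 2270 genes rose, and without mutant library a 673 fell.

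The gene named in the genotype was checked first. Reads of pgl-1 stood at 1803, 2339 and 1113 in wild-type libraries a, b and c, and at 131, 122.2 and 308 in mutant libraries a, b and c. Every mutant library lay far below every wild-type library (187 ± 105 against 1751 ± 615, SD, n = 3 each; log2 fold change −3.12, adjusted p = 9.8e-16 in the authors' deposited table). Reads of him-3, the other gene mutated in the strain, were 356, 444 and 316 in wild type and 259, 228 and 245 in the mutant. The groups did not overlap (log2 fold change −0.61, adjusted p = 0.0144 in the authors' deposited table). In voom the him-3 call was lost under total-read scaling, where its log2 fold change was −0.35, and without wild-type library a, wild-type library b or mutant library b, where it was −0.67, −0.48 and −0.56.

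The other PGL and GLH genes were mostly lower as well: 6 of 7, pgl-1 included, fell in the authors' deposited table (6 in voom, and 5 in voom with total-read scaling). Reads of pgl-3, the partner scaffold, were 1159, 1668 and 965 in wild type and 475, 556 and 619 in the mutant. The groups did not overlap (log2 fold change −1.19, adjusted p = 1.45e-05 in the authors' deposited table). Reads of glh-1 were 1104, 2218 and 954 in wild type and 571, 744 and 928 in the mutant. Here the highest mutant library came close to the lowest wild-type library (log2 fold change −0.91, adjusted p = 0.0194 in the authors' deposited table), and the voom call was lost without mutant library a, where its log2 fold change was −0.73. Reads of glh-4 fell from 825 ± 218 to 491 ± 82.5 (SD, n = 3 each; log2 fold change −0.74, adjusted p = 0.0119 in the authors' deposited table). In the authors' deposited table pgl-2 and glh-2 fell, with log2 fold changes of −0.80 and −0.78, and glh-3, at −0.30, missed the threshold. In voom the log2 fold change of pgl-2 was −0.82; its call was lost under total-read scaling at −0.56, without mutant library b at −0.65, and without wild-type library a, where the fold change was again −0.82.

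Among 34 genes of germ granule assembly, 12 fell and 1 rose in the authors' deposited table (16 and 2 in voom, and 7 and 4 in voom with total-read scaling). The deepest fall was that of deps-1, which encodes a factor needed for P-granule assembly. It stood at 1216, 1197 and 1009.7 normalized reads in wild type and at 131, 111.5 and 90.5 in the mutant. The gap was many times the spread within either group (log2 fold change −3.31, adjusted p = 3.24e-54 in the authors' deposited table). Reads of cgh-1, a DEAD-box helicase of germline RNA particles, fell from 10049 ± 1793 to 3898 ± 1064 (SD, n = 3 each; log2 fold change −1.35 in the authors' deposited table). Those of cey-2, a Y-box RNA-binding protein, fell from 7108 ± 983 to 2753 ± 422 (SD, n = 3 each; log2 fold change −1.36 in the authors' deposited table). The member that rose was the X-linked meg-2, which acts in granules of the embryo (log2 fold change 1.37 in the authors' deposited table), although its libraries overlapped between the groups.

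**Figure D2:**
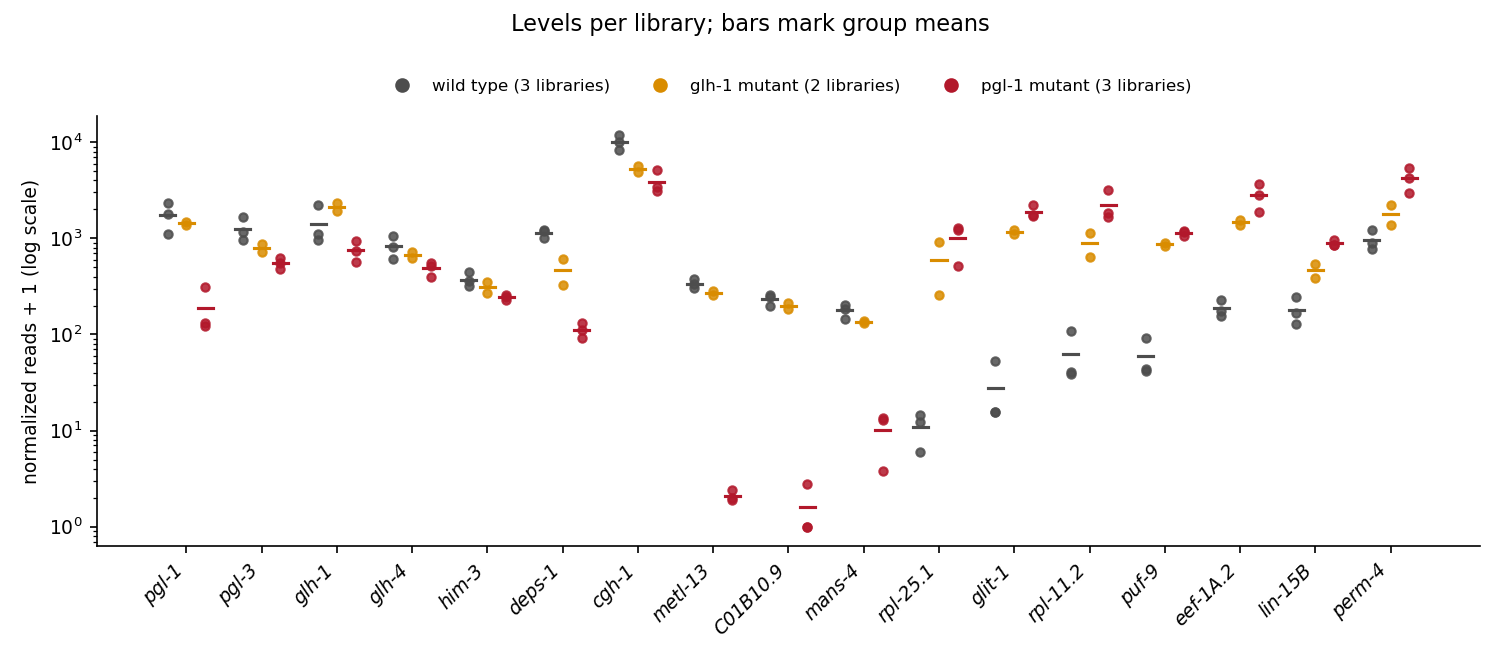
Normalized reads plus 1 (log axis) of selected genes in each library of wild type (n = 3), glh-1 mutant (n = 2) and pgl-1 mutant (n = 3), with short bars at the group means. For deps-1 the pgl-1 mutant libraries lie at 90.5 to 131 and the wild-type libraries at 1009.7 to 1216.

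Small RNA pathway genes were lower in 31 of 60 cases and higher in 6 in the authors' deposited table. The 31 lower genes in voom became 15 with total-read scaling and 20 without wild-type library a. Reads of prg-2, an Argonaute of the Piwi class, were 1581, 1356 and 1057 in wild type and 406, 465 and 615 in the mutant, with no overlap (log2 fold change −1.41 in the authors' deposited table). Genes that rose included rrf-2, a predicted RNA-directed RNA polymerase, at 16.21 ± 4.12 in wild type and 114 ± 45.004 in the mutant (SD, n = 3 each). The X-linked alg-1, an Argonaute of the microRNA pathway best known from somatic tissue, went from 66.05 ± 19.6 to 184 ± 23.3 (SD, n = 3 each).

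Some genes of oocytes, meiosis and proliferation fell, while more than 1 in 2 of the oocyte, meiotic and proliferation genes did not pass in either direction. Of 43 oogenesis and eggshell genes 16 fell (37.2%) and 2 rose in the authors' deposited table, with a median log2 fold change of −0.46. Of 53 meiotic prophase genes 26 fell (49.1%) and none rose there, with a median of −0.51, and of 36 stem cell and proliferation genes 10 fell (27.8%) and none rose, with a median of −0.39. Over all tested genes 8.84% fell, with a median of 0.45. In voom 21, 27 and 18 of the genes of these lists fell, and with total-read scaling in that fit 9, 9 and 4 did. The 27 meiotic genes became 13 without wild-type library a and 17 without mutant library a, and the 18 proliferation genes became 10, 8 and 11 without wild-type library a, mutant library a and mutant library b. Fewer germ cells and less RNA of a gene per cell cannot be told apart in such bulk samples.

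Reads of rme-2, the yolk receptor of oocytes, were 5695, 7016 and 5277 in wild type and 2579, 2767 and 3115 in the mutant. The groups were well apart (log2 fold change −1.08, adjusted p = 8.12e-08 in the authors' deposited table). Reads of msh-5, a MutS homologue of meiotic crossing over, fell from 434 ± 36.1 to 205 ± 16.16, and those of him-6, a helicase of the BLM family, from 543 ± 74.2 to 282 ± 17.9 (SD, n = 3 each). The translational repressor gld-1, which restrains early germ cells, fell from 4049 ± 119.01 to 2361 ± 421 (SD, n = 3 each; log2 fold change −0.77 in the authors' deposited table). The oogenesis list was not uniform. Reads of perm-4, a protein of the eggshell permeability barrier, were 780.05, 887 and 1229 in wild type and 4209.8, 5449 and 2997 in the mutant, all above wild type (log2 fold change 2.09, adjusted p = 1.72e-13 in the authors' deposited table).

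Most ribosomal protein genes fell. Of 75 ribosomal protein genes 57 were lower and 2 higher in the authors' deposited table, with a median log2 fold change of −0.81; the voom count of lower genes was 64, and 37 without mutant library a and 59 with total-read scaling. Of 62 mitochondrial ribosomal protein genes 24 fell (38.7%) and none rose in the authors' deposited table. In voom 23 of these genes fell, 7 with total-read scaling and 9 to 27 without 1 library, the fewest without mutant library a. The 2 ribosomal protein genes that rose are X-linked paralogues with abundant relatives. Reads of rpl-25.1 were 5.02, 13.6 and 11.19 in wild type and 521, 1229 and 1291 in the mutant (log2 fold change 6.39, adjusted p = 8.88e-48 in the authors' deposited table). Reads of rpl-11.2 were 40.2, 108 and 38.1 against 1659.7, 3162 and 1841 (log2 fold change 4.94 in the authors' deposited table). The elongation factors split the same way: eef-1A.1 had a log2 fold change of −0.69 and its X-linked relative eef-1A.2 one of 3.84 in the authors' deposited table. Reads may be shared between such near-copies.

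X-linked genes stood apart from the autosomes. On X, 737 of 1631 tested genes (45.2%) rose and 11 (0.674%) fell in the authors' deposited table, against 2224 (19.2%) and 1164 (10.1%) of 11580 autosomal genes. In voom 851 X-linked genes rose, 456 without wild-type library a and 990 with total-read scaling. A larger share also rose on X within the authors' gene categories, although the sperm category had 1 tested gene on X. Of germline-enriched genes 11 of 54 on X rose (20.4%), against 1.98% on the autosomes. Of germline-specific genes 4 of 15 on X rose. Soma-specific genes differed less, at 59.8% against 45.1%. Of 210 ubiquitous genes on X 72.4% rose (152) and none fell, while on the autosomes 174 of 1657 rose and 248 fell in the authors' deposited table. Of genes with a mean expression of at least 100, 154 of 183 on X rose and 2 fell, against 218 and 960 of 4171 on the autosomes. Reads on X without the vitellogenin genes made up 1.22%, 1.22% and 1.97% of wild-type libraries a, b and c and 5.62%, 5.28% and 3.83% of mutant libraries a, b and c. The groups did not overlap, and the glh-1 mutant lay between them at 2.92% and 3.37%.

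**Figure D3:**
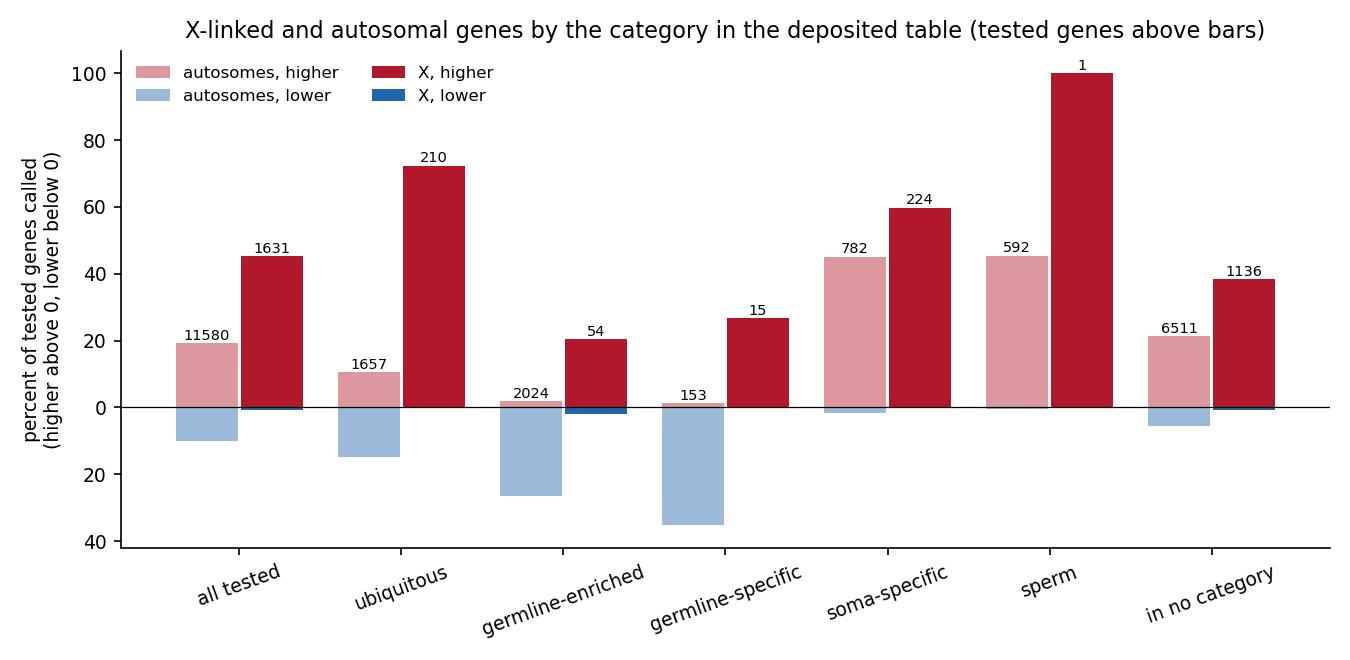
Percent of tested genes called higher or lower on X and on the autosomes in the deposited comparison, for all tested genes and by the authors' gene category. On X, 45.2% of tested genes rose and 0.674% fell, against 19.2% and 10.1% on the autosomes.

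Of the 12 genes with the largest rise among those at a mean expression of at least 100, 7 are on X. Reads of glit-1, a member of the gliotactin family, were 14.4, 14.6 and 51.5 in wild type and 1709, 1729 and 2217 in the mutant. No other tested gene at that level rose more except rpl-25.1 (log2 fold change of glit-1 6.09, adjusted p = 2e-62 in the authors' deposited table). Reads of puf-9, a Pumilio-family RNA-binding protein, rose from 58.5 ± 28.9 to 1143 ± 78.96 (SD, n = 3 each; log2 fold change 4.29 in the authors' deposited table). The chromatin regulators that rose included lin-15B, known for keeping germline genes off in somatic cells, at 168, 128.6 and 244 in wild type and 844, 964 and 854 in the mutant. Over the list of 50 chromatin regulators 8 rose (16%) and 7 fell (14%) in the authors' deposited table, against 22.3% and 8.84% of all tested genes. Of 14 dosage compensation genes 3 rose (21.4%) and 1 fell (7.14%) in the authors' deposited table, which is near those shares.

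Markers of several cell types were counted in addition to the gene lists. All 6 intestinal markers rose in the authors' deposited table. Their summed level was 7651 to 10469 in wild type and 24181 to 40576 in the mutant. Nearly all of that sum came from the yolk protein genes vit-2 and vit-6. Reads of vit-6 were 4173 to 5901 in wild type and 12954 to 21804 in the mutant. The gut factor elt-2 had no read in wild type and 1.41 to 8.98 normalized reads in the mutant. All 3 tested muscle markers rose, with sums of 209 to 449 against 775 to 899, while the muscle factor hlh-1 had no read in any library. Of 4 gonad sheath markers 3 rose, with sums of 112.02 to 213 against 246 to 529. Most of the sheath sum was inx-8, at 77 to 172 against 154 to 343, which overlapped between the groups. Of 5 neuron markers 2 rose, with sums of 226 to 331 against 382 to 418. Most of the neuron sum was snb-1, which was not called and overlapped, at 211 to 302 against 295 to 322. No read of rab-3 was found in wild type, and it stood at 1.77 to 3.99 in the mutant. Of 3 tested hypodermal markers 2 rose, with sums of 308 to 788 against 1211 to 1933, and dpy-7 had no read in wild type and 0.998 to 2.83 in the mutant. All 5 germ line markers fell, with sums of 23222 to 24252 against 8960 to 12718, and 3 of 5 oocyte markers did, with sums of 25961 to 28121 against 14630.4 to 18323. In the glh-1 mutant the intestinal sums were 11008 and 47147, so its libraries differed by more than the pgl-1 libraries did. The part of other tissue in the somatic gene changes was not tested.

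**Figure D4:**
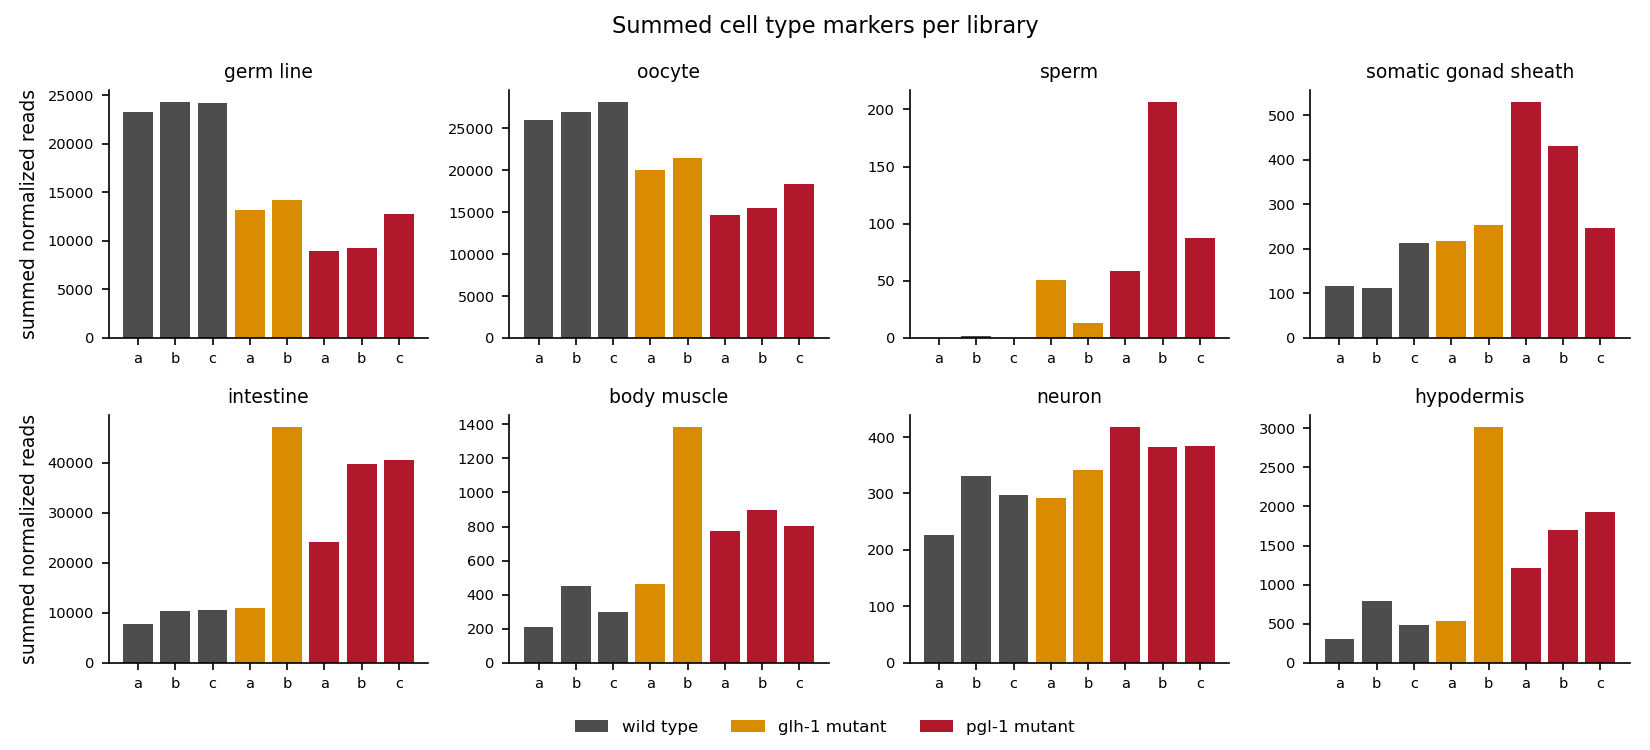
Summed normalized reads of each cell type's marker genes in every library of wild type (a, b, c), glh-1 mutant (a, b) and pgl-1 mutant (a, b, c), as bars on a linear axis that differs between panels. Germ line sums are 23222 to 24252 in wild type and 8960 to 12718 in the pgl-1 mutant. Intestinal sums, mostly reads of vit-2 and vit-6, are 7651 to 10469 in wild type and 24181 to 40576 in the pgl-1 mutant.

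In each somatic list the share of genes that rose was above the 22.3% of all tested genes. Of 44 tested intestinal genes 30 rose and none fell in the authors' deposited table (median log2 fold change 1.83), and all 6 vitellogenin genes, which encode yolk proteins, rose. The yolk genes vit-2 and vit-6 were also among the intestinal markers above. Reads of vit-2 were 3297, 4791 and 4372 in wild type and 10573, 17745 and 18032 in the mutant, with no overlap (log2 fold change 1.86 in the authors' deposited table). Vitellogenin genes are alike in sequence and may share reads. The lysozyme gene lys-1 went from 57.9 ± 18.1 to 352 ± 58.8 (SD, n = 3 each; log2 fold change 2.52 in the authors' deposited table).

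Of 45 muscle genes 30 rose and 1 (unc-45, a myosin chaperone) fell in the authors' deposited table, and the 29 higher in voom became 17 without wild-type library a. Reads of deb-1, the vinculin of muscle attachments, were 15.1, 12.7 and 13.4 in wild type and 107, 127 and 106.1 in the mutant, with no overlap. Of 45 genes of somatic gonad and basement membrane 23 rose and 1 fell in the authors' deposited table, and the 27 higher in voom became 16 without wild-type library a. Reads of ost-1, which encodes SPARC, rose from 40.9 ± 10.5 to 458 ± 175 (SD, n = 3 each; log2 fold change 3.38 in the authors' deposited table). Of 46 hypodermis and cuticle genes 24 rose and none fell there. The 25 higher in voom became 8 without wild-type library a and 16 without either wild-type library c or mutant library b.

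Neuronal genes were at low levels. Of 40 tested, 17 rose and none fell in the authors' deposited table, and voom called 26 higher, or 15 without wild-type library a. The median log2 fold change was 1.85 in the authors' deposited table and 1.69 with genes at 0 in wild type set to their lower bound. Reads of casy-1, a calsyntenin, were 18.8, 19.5 and 26.9 in wild type and 262, 229 and 100.4 in the mutant. The groups were apart (log2 fold change 3.098, adjusted p = 1.58e-13 in the authors' deposited table). Reads of unc-119, a broadly neuronal gene, were 3.77, 8.77 and 8.96 in wild type and 41.9, 17.7 and 7.07 in the mutant. These overlapped and did not pass (log2 fold change 1.52, adjusted p = 0.0569 in the authors' deposited table).

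Major sperm protein genes, which encode cytoskeletal proteins of nematode sperm, were nearly absent from wild type and had reads in every mutant library. Their summed level was 4.39, 6.82 and 0 normalized reads in wild-type libraries a, b and c and 293, 1317 and 438 in mutant libraries a, b and c. All 29 tested major sperm protein genes rose in the authors' deposited table, with a median log2 fold change of 4.31, and 17 of these had no read in any wild-type library. These genes are near-copies and may share reads. Of 39 spermatogenesis genes 23 rose and 1 fell in the authors' deposited table, and the 25 higher in voom became 15 without wild-type library a. Of the 39, 20 had no read in any wild-type library and could only be higher. The median log2 fold change of this list was 2.39 in the authors' deposited table and 2.03 with those genes at their lower bound. The sums of this list were far from 0 in wild type and overlapped between the groups, at 1614 to 2101 in wild type and 1522 to 2574 in the mutant. Of 599 genes in the authors' sperm category 270 rose (45.1%) and 2 fell (0.334%) in the authors' deposited table. Of the 599, 293 had no read in any wild-type library and could only be higher. The 327 higher in voom became 140 without wild-type library a and 187 without wild-type library b, and the sums were 4860 to 5209 in wild type and 7029.95 to 12907 in the mutant. Reads of ssq-2, a sperm-specific gene, were 0 in wild type and 17.97, 87.6 and 32.5 in the mutant, at least 47.1-fold higher. Mutant library b was the highest in sperm genes: the summed sperm markers were 0, 1.95 and 0 in wild type and 58.4, 206 and 87.7 in the mutant. The gene fog-3, which specifies the sperm fate, had 1 read over the wild-type group and 74 over the mutant, a ratio of 59.1 with an exact 95% counting interval of 10.3 to 2365. Bounds and intervals of this kind cover counting error only.

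**Figure D5:**
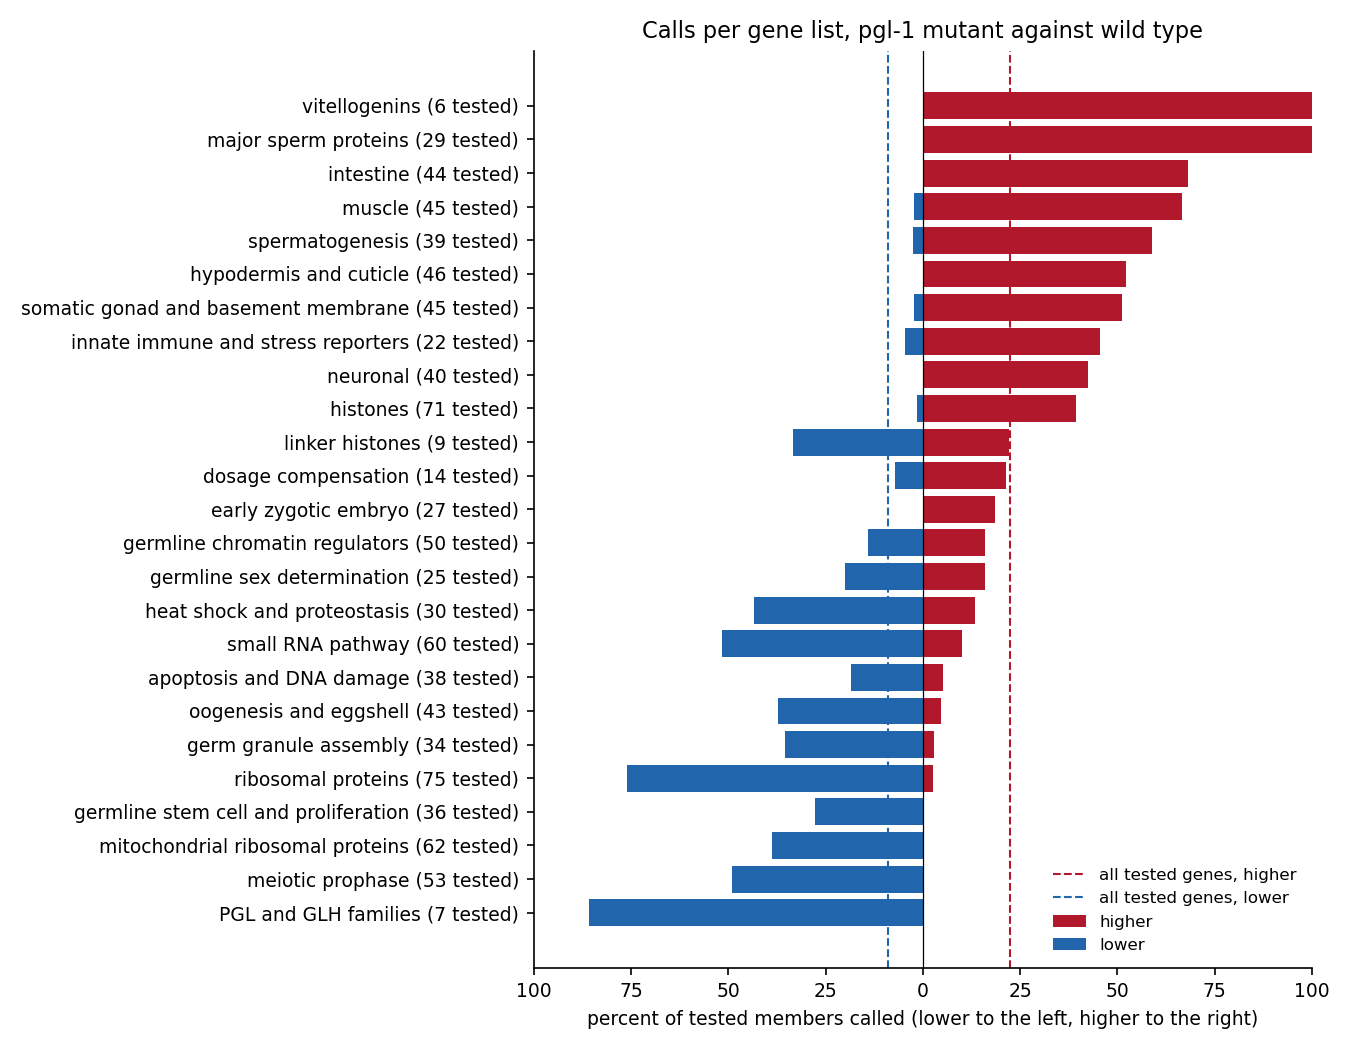
Percent of tested members of each list called lower (to the left) or higher (to the right) in the deposited comparison, with dashed lines at the percent over all tested genes. All 29 major sperm protein genes rose, 57 of 75 ribosomal protein genes fell, and 26 of 53 meiotic prophase genes fell.

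The deepest losses were of neighbouring genes on chromosome IV. Reads of metl-13 (C01B10.8, methyltransferase-like) were 375, 336 and 302 in wild type and 0.998, 0.885 and 1.41 in the mutant (log2 fold change −7.45, adjusted p = 3.63e-40 in the authors' deposited table). Reads of the adjacent C01B10.9 were 244, 256 and 195 in wild type and 0, 1.77 and 0 in the mutant. That is 739 reads against 2, a ratio of 463 with an exact 95% counting interval of 128 to 3828. Both genes were close to wild type in the glh-1 mutant, at 255 and 282 for metl-13 and 210.04 and 184 for C01B10.9. In the WBcel235 annotation 49 protein-coding genes lie between metl-13 and pgl-1. Of 34 tested, 7 rose and 8 fell in the authors' deposited table. The share of these 34 that rose was near the 22.3% of all tested genes. Their share that fell was above the 8.84% of all tested genes, in few genes and without a test. A further gene of chromosome IV, mans-4, fell from 177 ± 29.6 to 9.07 ± 5.41 (SD, n = 3 each; log2 fold change −4.01 in the authors' deposited table); it was singled out after its value was seen. Chromosome IV as a whole was near the background, with 519 of 2277 tested genes higher (22.8%) and 226 lower (9.93%).

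The nearest called neighbours of pgl-1 and him-3 were each other and 4 genes that rose. Among these 4, the chitinase gene cht-3 went from 668, 628 and 676 in wild type to 1654, 1327 and 1171 in the mutant (log2 fold change 1.07, adjusted p = 5.41e-07 in the authors' deposited table). The others were prkl-1, gldi-4 and adah-1, which had values of 2.90, 2.28 and 1.95 on the same log2 scale of the authors' deposited table.

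The authors' soma-specific and germline categories gave the same directions over more genes. All categories were taken as deposited, since no source used here says how they were drawn up. Of 1879 ubiquitous genes 327 rose (17.4%) and 252 fell (13.4%) in the authors' deposited table, against 22.3% and 8.84% of all tested genes. Of 1019 soma-specific genes 491 rose (48.2%) and 14 fell (1.37%) in the authors' deposited table. The 560 soma-specific genes higher in voom became 299 without wild-type library a. Of 2104 germline-enriched genes 53 rose and 539 fell there, and of 169 germline-specific genes 6 rose and 54 fell. In voom 587 germline-enriched and 56 germline-specific genes fell, and with total-read scaling 212 and 25 did. Without mutant library a these counts were 327 and 37, and without wild-type library a 330 germline-enriched genes fell.

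The counts of the remaining lists are set against 22.3% higher and 8.84% lower over all tested genes. Of 71 histone genes 28 rose (39.4%) and 1 fell (1.41%) in the authors' deposited table, and the 27 higher in voom became 14 without wild-type library a; histone genes are near-copies and may share reads. Of 9 linker histone genes 2 rose (22.2%, as over all genes) and 3 fell there, among them hil-5, which fell from 1302 ± 336 to 609.9 ± 85.3 (SD, n = 3 each). Of 30 heat shock and proteostasis genes 4 rose (13.3%) and 13 fell (43.3%) in the authors' deposited table. The cytosolic chaperone hsp-1 had a log2 fold change of −0.93 and the X-linked hsp-3, a chaperone of the endoplasmic reticulum, one of 1.65 in the authors' deposited table. Of 38 apoptosis and DNA damage genes 2 rose (5.26%) and 7 fell (18.4%) in the authors' deposited table, and the 8 lower in voom became 1 with total-read scaling and 3 without wild-type library a. Of 25 germline sex determination genes 4 rose (16%) and 5 fell (20%) in the authors' deposited table, and the 8 lower in voom became 2 with total-read scaling. Of 27 early zygotic genes 5 rose (18.5%, below the share of all genes) and none fell in the authors' deposited table. Of 22 immune and stress reporters 10 rose (45.5%) and 1 fell there. Among these, cul-6, a cullin, had no read in wild type and 54.9, 29.2 and 22.6 normalized reads in the mutant, at least 36.4-fold higher.

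Reads of glh-1 itself were 1942 and 2311 in the 2 libraries labelled glh-1(gk100), not below wild type (log2 fold change 0.54, adjusted p = 0.32 in the authors' deposited table). The reads of this gene thus do not check that label, and the labels do not say which part of the gene the allele affects. The glh-1 mutant shares the wild-type libraries, so its own values against wild type are only set beside those above. There 649 of 9718 tested genes (6.68%) rose and 240 (2.47%) fell, 9.15% in all, in the authors' deposited table. The mutants were compared directly in the voom fit, which called 31 of 15189 genes higher (0.204%) and 16 lower (0.105%) in the pgl-1 than in the glh-1 mutant, 0.309% in all, while 1853 had an unadjusted p under 0.05. These counts were unsteady: 1 and 13 without glh-1 library a, and 152 and 40 without pgl-1 library c. The genes named from this test were chosen after their values were seen. Besides metl-13, C01B10.9, mans-4 and pgl-1, the lower genes included deps-1, at 322 and 615 in the glh-1 mutant (log2 fold change −1.83 ± 0.28, SE, adjusted p = 0.0104 by limma voom), and glh-1 (log2 fold change −1.56 ± 0.27, SE, adjusted p = 0.0209 by limma voom). The largest single contrast in the other direction at high level was gln-6, a glutamine synthetase. It stood at 1826, 2004 and 1932 in wild type and 1486, 1261 and 1359 in the pgl-1 mutant, but gln-6 was at 38.6 and 38.2 in the glh-1 mutant (log2 fold change 5.14, adjusted p = 7.71e-07 by limma voom).

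RNAi against 4 P-granule genes was done in another strain with controls of its own. The Day 1 RNAi libraries are labelled P-granule(-) and UNC-119::GFP(-), that is, negative for this reporter. Against their controls they gave 2505 higher (19.4%) and 1340 lower genes (10.4%), 29.8% in all, in the authors' deposited table. Genes higher in both comparisons numbered 1608, which is 53.7% of those in the pgl-1 mutant and 64.2% of those after RNAi. Genes lower in both numbered 694, or 58.3% and 51.8%. Calls in opposite directions were made for 1 of the genes higher here and 2 of those lower here. This overlap was not tested against chance.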

How the data were processed

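Ribosomal RNA was removed from total RNA and an unstranded kit was used, per the labels' protocols, so genes that overlap on opposite strands are uncertain. The authors used TopHat2 and DESeq2, per the submitters' processing notes; no source used here gives their versions, the genome build, the annotation or the read counter. Per the file headers, the deposited table holds a log2 fold change, a Benjamini-Hochberg adjusted p-value and a mean expression for each comparison. Its signal columns are the authors' read count averages per group, which the values show to be reads divided by a factor per library. Further deposited columns mark the authors' gene categories with 0 or 1, a label with no unit.

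The main results are these fold changes and p-values, at a threshold of 0.05. Whole reads per library were recovered from the group averages for 13936 wild-type, 17820 glh-1 and 20009 pgl-1 genes above 0; 2, 0 and 6 of these had several solutions, settled by the deposited mean expression. Recovered reads gave back the deposited mean expression within a relative 1e-06 for 100% of 10275 pgl-1 and 9428 glh-1 genes checked. Each SD and n comes from these reads. They were fitted with limma voom (limma 3.58.1, R 4.3.3) over 8 libraries, with the authors' factors, on the 15189 genes whose mean reached 1 normalized read in any group. On data simulated for pgl-1 against wild type over 13429 genes, this fit found 70% of 2-fold and 96% of 4-fold changes, with 8.79% of 182 calls false. Precision is limited by depth, lowest at 1158248 reads.

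Names and chromosomes come from the table and the WBcel235 annotation (42420 identifiers matched); no coordinates are given, since the files' build is not known. Of 1065 entries in 25 gene lists, 1040 matched. The genes compared, the lists and the markers were chosen with earlier results of these data known. Named genes are the P-granule genes and him-3, the 12 most raised and 12 most lowered called genes with a mean expression of at least 100, up to 3 called genes of each list with the smallest p, the 5 called genes nearest to pgl-1 and to him-3, and the 3 most abundant called genes of each category. Other genes named are list members or markers, or are said to have been chosen after their values were seen. Alternatives were other scalings, filters, thresholds and fits, and each library left out in turn.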

Additional observations from a re-analysis of the deposited data

How the results depend on the processing

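The 150 genes checked here are those named by rule and those called between the pgl-1 and glh-1 mutants. Of these, 149 were called in the deposited comparison, most of them chosen for it. None changed direction under any alternative run, which says little for genes chosen in this way. The call changed for 19 when 1 library was left out and for 11 with total-read scaling. Total-read scaling and leaving out a library are changes of the voom fit and are set against its counts. Genes higher than wild type numbered 2997 in the deposited comparison and 1979 at an adjusted p of 0.01; in voom they numbered 3640, 4527 with total-read scaling, and 1718 to 3906 without 1 library. Genes lower numbered 1190, 608 at 0.01 and 273 at a 2-fold change or more; in voom they numbered 1295, 503 with total-read scaling, and 673 to 1354 without 1 library. Between the pgl-1 and glh-1 mutants, 31 higher genes became 66 with total-read scaling and 1 to 152 without 1 library. The 16 lower genes became 9 with a group mean of at least 10, and 9 to 40 without 1 library. Calls summed over gene lists were 252 higher (271 in voom, 167 to 284 without 1 library) and 215 lower (238 in voom, 130 with total-read scaling). Over the authors' categories they were 1145 higher (1300 in voom, 656 to 1388 without 1 library) and 814 lower (893 in voom, 338 with total-read scaling, 495 to 918 without 1 library). The X chromosome held 24.6% of higher genes, and in voom 23.4%, 21.9% with total-read scaling and 23.4% to 26.5% without 1 library. The causes were not tested. No paired analysis was possible because the columns carry no replicate numbers. On simulated data voom found 70% of 2-fold changes, which were placed only in genes above a minimum simulated level. How far depth limits scarce genes was not simulated.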

Other observations

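Small nucleolar RNAs, which guide the modification of ribosomal RNA, were lower in the mutant. Of 95 tested, 31 fell and none rose in the authors' deposited table, with a median log2 fold change of −1.44, against 8.84% of all tested genes lower. Summed reads of small nucleolar RNAs were 13639, 38795 and 6618 in wild-type libraries a, b and c and 4673, 7786 and 4524 in mutant libraries a, b and c. The groups overlapped, as wild-type library c lay below mutant library b. Wild-type library b, the library with the most noncoding RNA, was also the highest here. In voom 34 fell, 21 without that library and 17 without mutant library a. Many of these RNAs lie within introns of other genes, where unstranded reads of the host gene cannot be told apart from theirs. Of the 45 genes that fell at least 4-fold, 18 encode small nucleolar RNAs and 16 encode proteins. Among all 13469 tested genes these classes number 95 and 12258. The F-box gene fbxa-192 was among the 16 that encode proteins. Its reads were 188, 214 and 157 in wild type and 18.97, 20.4 and 2.83 in the mutant, and 7.85 and 3.64 in the glh-1 mutant.

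Several genes with sequence names and no annotated chromosome rose together and differed between the mutants; they were chosen after their values were seen. Y16E11A.2 stood at 10.04, 5.84 and 6.72 normalized reads in wild type and 159, 166 and 147 in the pgl-1 mutant, against 30.2 and 10.92 in the glh-1 mutant. F21D9.7 stood at 0, 1.95 and 0 in wild type, 118.8, 107 and 151 in the pgl-1 mutant, and 7.85 and 3.64 in the glh-1 mutant. Whether these genes share reads was not tested.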
